A study of Arabidopsis thaliana with 12 samples.

Results

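Loss of the salicylic acid enzyme ICS1 was examined in unstressed rosettes of Arabidopsis thaliana by setting the 3 eds16 libraries against the 3 Col-0 libraries, which is 6 of the 12 libraries of the study. Genes averaging 10 or more normalized counts across all 12 libraries entered the tests, which kept 18289 of the 33602 genes in the table. The eds16 plants carry a mutation in ICS1, and Col-0 is the wild type, which the sample titles call parent. The study also holds ceh1/eds16 and ceh1 plants, 3 libraries each, in which ceh1 is a mutation in the plastid enzyme HDS that lets methyl-erythritol cyclodiphosphate build up. All plants were grown in soil under 16 h of light and 8 h of dark and were 3 weeks old, and polyadenylated RNA of rosettes was sequenced. The labels name no stress treatment. The sources used here do not say how many plants stand behind a library or whether counting used strand, so reads of overlapping or antisense genes may be shared.

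Salicylic acid is a plant defence hormone. Isochorismate synthase 1, the product of ICS1, makes its precursor isochorismate in the plastid. The exporter EDS5 and the conjugating enzyme PBS3 act after it, and the regulators SARD1 and CBP60g switch the gene on. The hormone is sensed by NPR1 and its relatives, which act with TGA and WRKY transcription factors on pathogenesis-related (PR) genes, and it is removed by hydroxylation and glycosylation.

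Values are normalized counts, that is, read counts divided by a size factor of each library, and are comparable between libraries for a gene but not between genes. Fold changes are log2 values of eds16 over Col-0 from limma on log2(normalized count + 1), with their standard error (SE), and a gene is called where the adjusted p over all 18289 genes is under 0.05. Because of the added 1, changes of genes with few reads come out too small. The eds16 libraries held 8897940, 6478773 and 8182780 reads in genes and the Col-0 libraries 7328010, 4986863 and 6636340. Among pairs of replicates of eds16 or of Col-0 the squared difference in reads was 2.68 to 8.76 times that of read sampling. The third ceh1/eds16 library differed from the other replicates of its genotype by 25.2 and 26.9 times sampling. It enters the present comparison through the shared estimate of the spread and through the filter on the mean over 12 libraries. In bulk rosettes, fewer cells of a type and less RNA per cell cannot be told apart.

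ICS1 itself (AT1G74710, chromosome 1, 28070295 to 28074177, TAIR10.1, protein-coding) read 19.2, 16.0 and 10.4 in eds16 libraries, against 235, 277 and 224 in Col-0 libraries. The groups did not overlap, and the transcript fell by 3.96 ± 0.23 (SE) on the log2 scale (adjusted p = 9.28e-08, limma), so the labels and the transcript go together in all 6 libraries. The mean was also low in ceh1/eds16, at 21.0 ± 7.06, against 666 ± 31.2 in ceh1 (SD, n = 3 each). ICS2, the second isochorismate synthase gene, read 34.5, 34.6 and 24.9 in eds16 libraries, against 42.8, 17.8 and 28.3 in Col-0 libraries, and its groups overlapped (log2 fold change 0.14 ± 0.32, adjusted p = 0.838). HDS, the gene mutated in ceh1, read 3955, 3383 and 3711 in eds16 libraries, against 3840.2, 3874 and 3582 in Col-0 libraries, with overlapping groups (adjusted p = 0.908).

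Around ICS1, 19 tested genes start within 50000 bases of its start, and 1 of them was called. This was TRZ1 (AT1G74700), a tRNA 3′ processing enzyme gene at chromosome 1, 28065014 to 28067423, on the + strand like ICS1 with its end 2871 bases before the start of ICS1. TRZ1 read 13.4, 6.65 and 5.18 in eds16 libraries, against 28.5, 25.0 and 27.0 in Col-0 libraries. Its groups did not overlap, and it fell by 1.66 ± 0.33 (SE, adjusted p = 0.00821, limma). In the ceh1 background TRZ1 averaged 9.32 ± 2.65 in ceh1/eds16 and 52.4 ± 9.13 in ceh1. ICS1 was the only gene with a Col-0 mean of at least 50 whose highest value in the 6 libraries with the eds16 mutation lay under 1/4 of its lowest value in the 6 libraries without it.

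Across the transcriptome 841 genes were called in eds16 against Col-0 (4.6% of the genes tested), 542 lower (2.96%) and 299 higher (1.63%). At least a 2-fold change was found for 163 lower and 88 higher genes, and at least a 4-fold change for 21 lower and 3 higher genes. The lower genes included ICS1, BG3, PR1 and other salicylic acid markers and many receptor kinase genes. The higher genes included VSP2 and VSP1, storage proteins of the jasmonate response, and genes of anthocyanin synthesis. The median of all genes tested was -0.02 on the log2 scale, 3695 genes had an unadjusted p under 0.05, and in 836 of the 841 called genes the 3 values of each group did not overlap. Over all genes tested 16.6% had every eds16 value below every Col-0 value and 12.7% every value above.

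These totals rest on few libraries. Higher genes numbered 117 without Col-0 replicate 1, 67 without Col-0 replicate 2, 80 without eds16 replicate 1, 67 without eds16 replicate 2, 182 without ceh1 replicate 1 and 752 without ceh1/eds16 replicate 3. Lower genes numbered 303, 170, 208 and 241 without the same Col-0 and eds16 libraries in that order, and 1029 without ceh1/eds16 replicate 3. Scaling to an equal upper quartile gave 412 lower and 381 higher genes, a share of 51.95% lower in place of 64.45%. Of the 104 called genes that the naming rule takes, 44 were called under each of the 26 alternatives tried, and 4 more (TRZ1, DFR, LDOX and PAP1) under each of the 25 that test them.

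**Figure D1:**
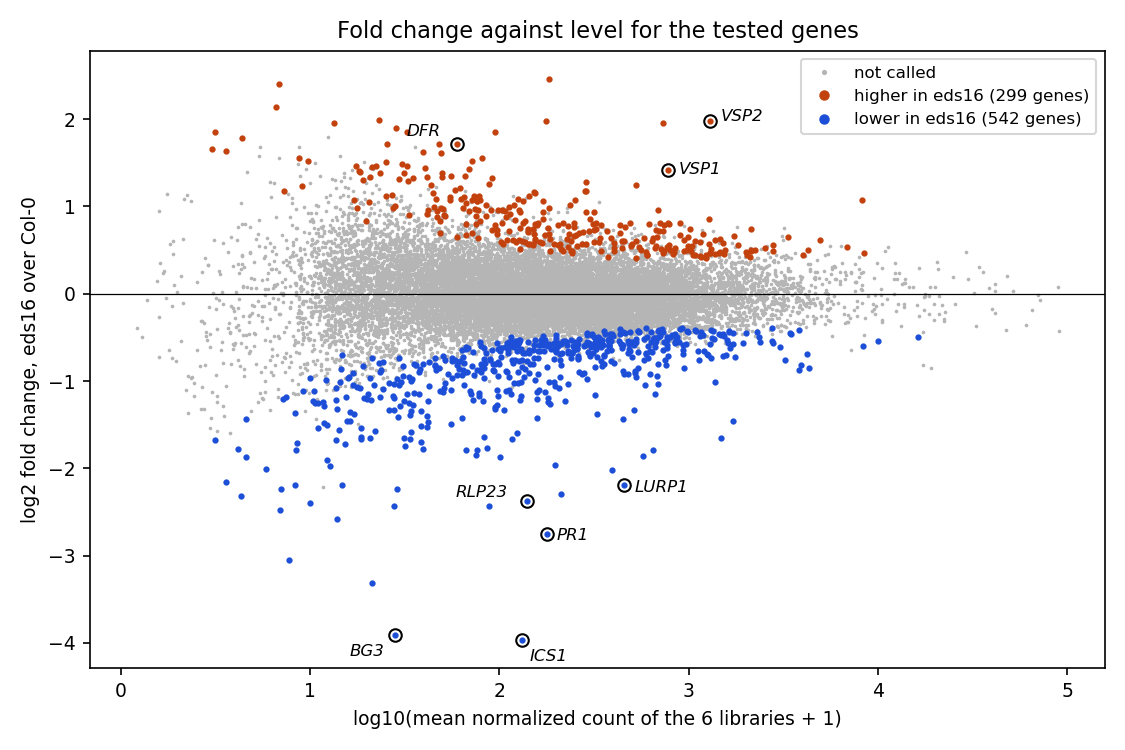
Log2 fold change of eds16 over Col-0 (vertical axis) against the log10 of the mean normalized count of the 6 libraries plus 1 (horizontal axis) for the 18289 genes tested, with the 299 higher and 542 lower genes in colour and 8 genes named. ICS1 and BG3 lie lowest among the named genes, at -3.96 and -3.91, and VSP2 lies highest of them, at 1.98.

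Salicylic acid marker genes gave the list with the highest share of lower members. Of 10 tested pathogenesis-related and salicylic acid marker genes 9 fell and none rose in eds16, with a median log2 fold change of -1.91. The tenth, the glutaredoxin gene GRXC9, averaged 2.41 ± 1.29 in eds16 and 6.80 ± 3.04 in Col-0 (SD, n = 3 each, log2 fold change -1.19, adjusted p = 0.118). PR1 (AT2G14610), the best known marker of the hormone, read 40.3, 53.2 and 36.3 in eds16 libraries, against 181, 409 and 343 in Col-0 libraries. All eds16 values lay below all Col-0 values, and PR1 fell by 2.75 ± 0.28 (SE, adjusted p = 2.24e-05, limma). PR2, a beta-1,3-glucanase gene, read 140.1, 158 and 158 in eds16 libraries, against 496, 828 and 582 in Col-0 libraries. PR5, a thaumatin-like protein gene, read 80.6, 79.8 and 72.5 in eds16 libraries, against 246, 421 and 276 in Col-0 libraries. Neither overlapped, and they fell by 2.02 ± 0.16 (adjusted p = 2.16e-06) and 1.96 ± 0.19 (adjusted p = 1.52e-05).

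BG3, a glucanase gene that neighbours PR2, read 3.84, 1.33 and 2.07 in eds16 libraries, against 29.7, 80.3 and 46.4 in Col-0 libraries, a fall of 3.91 ± 0.37 (SE, adjusted p = 1.52e-05, limma). LURP1, a gene induced by oomycete infection, read 155, 150.3 and 180.2 in eds16 libraries, against 646, 881 and 721 in Col-0 libraries. AED1, which encodes an apoplastic aspartyl protease, read 235, 249 and 246 in eds16 libraries, against 775, 1145 and 771 in Col-0 libraries. All Col-0 values lay above all eds16 values in the 3 genes. LURP1 fell by 2.195 ± 0.16 (adjusted p = 1.05e-06) and AED1 by 1.85 ± 0.14 (adjusted p = 1.17e-06). CHI, a chitinase-like gene, fell by 1.84 ± 0.21 and NUDT6, a Nudix hydrolase gene of NADH metabolism, by 1.76 ± 0.18 (adjusted p = 7.69e-05 and 2.57e-05). These calls and those of PR1, PR2 and PR5 held under each of the 26 alternatives.

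**Figure D2:**
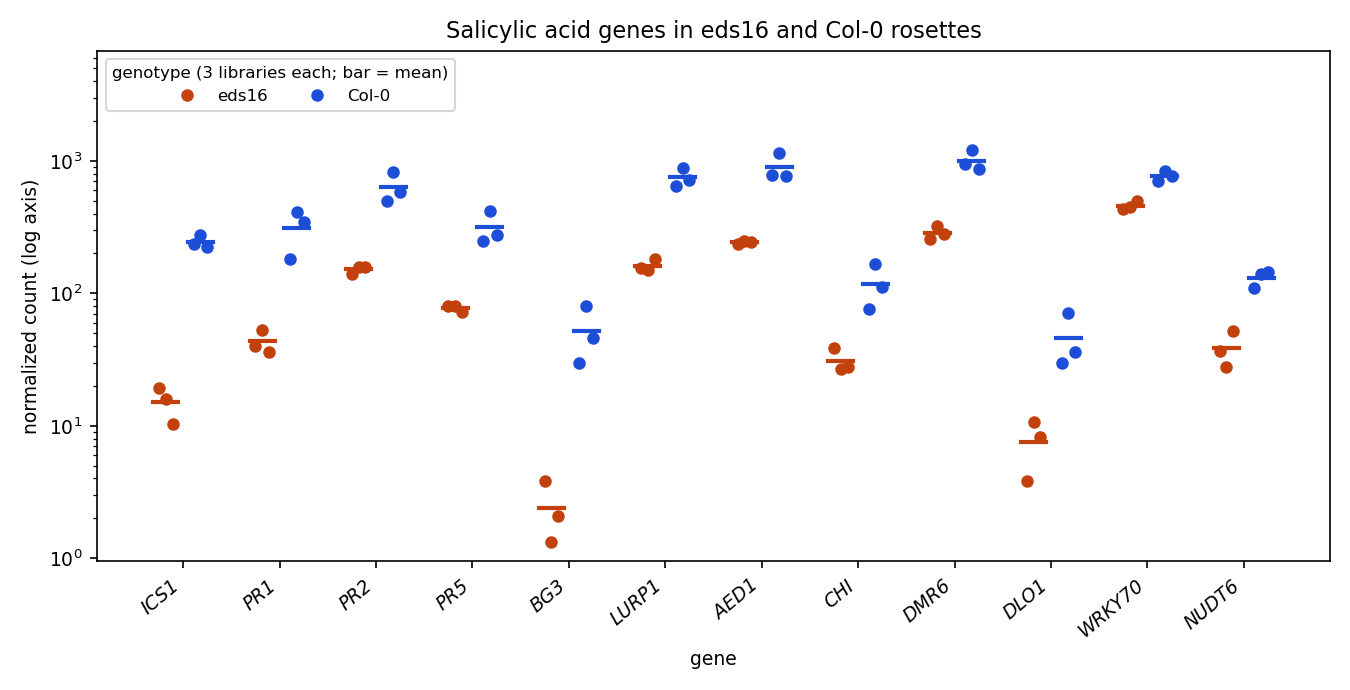
Normalized counts on a log axis for ICS1 and 11 salicylic acid genes, with eds16 libraries left of Col-0 libraries, points for the 3 libraries and bars for their mean. In each of the 12 genes all eds16 points lie below all Col-0 points, as in PR1 with 36.3 to 53.2 in eds16 and 181 to 409 in Col-0.

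Among 12 tested genes of salicylic acid synthesis and its regulators 3 fell (ICS1, SARD1 and CBP60G) and none rose. SARD1, a transcription factor gene that acts on ICS1, read 68.1, 81.2 and 105 in eds16 libraries, against 122, 219 and 182 in Col-0 libraries. It fell by 1.02 ± 0.19 (SE, adjusted p = 0.00621, limma), and this became 0.0533 without Col-0 replicate 2. CBP60G, its homologue, averaged 103 ± 14.96 in eds16 and 184 ± 51.6 in Col-0, with a log2 fold change of -0.81 ± 0.20 (adjusted p = 0.0284). Its call was lost without Col-0 replicate 2 (adjusted p = 0.151), eds16 replicate 1 (0.133) or eds16 replicate 2 (0.0917), by limma without the trend (0.0752) and by edgeR (0.0532). The export and conjugation genes were not called, with log2 fold changes of -0.57 ± 0.23 for EDS5 (adjusted p = 0.176) and -0.12 ± 0.14 for PBS3 (adjusted p = 0.654). EPS1, which releases salicylic acid from the conjugate, stood at 0.40 ± 0.25 (adjusted p = 0.392).

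Of 6 tested genes that modify salicylic acid 3 fell. DMR6, a salicylic acid 5-hydroxylase gene, read 257, 323 and 282 in eds16 libraries, against 944, 1204 and 864 in Col-0 libraries, and it fell by 1.79 ± 0.14 (SE, adjusted p = 2.3e-06, limma). DLO1, the 3-hydroxylase gene related to it, read 3.84, 10.6 and 8.29 in eds16 libraries, against 29.7, 71.4 and 36.1 in Col-0 libraries, a fall of 2.43 ± 0.31 (adjusted p = 0.000216). Both hydroxylase genes had groups that did not overlap, and both calls held under each alternative. UGT76B1, a glycosyltransferase gene, averaged 0.345 ± 0.598 in eds16 and 4.86 ± 1.98 in Col-0, close to the limit of detection in eds16. Its call (adjusted p = 0.0126) was lost without Col-0 replicate 2 (0.0667), eds16 replicate 1 (0.0557) or eds16 replicate 2 (0.0511). It was also lost by edgeR (0.052), by DESeq2 (0.0881), with only the 6 libraries of eds16 and Col-0 (0.067) and with 5 added before the log (0.0544). The glycosyltransferase genes UGT74F2 and UGT71C3 and the sulfotransferase gene SOT12 did not pass the test.

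Of 13 tested NPR, NIMIN and TGA genes 1 fell, NPR3, which averaged 193 ± 7.95 in eds16 and 293 ± 36.9 in Col-0. Its log2 fold change was -0.59 ± 0.14 (SE, adjusted p = 0.0232, limma), and its call was lost without Col-0 replicate 1 (0.104) or 2 (0.0972) and without eds16 replicate 1 (0.0994) or 2 (0.078), as well as without limma's trend (0.052). Without ceh1/eds16 replicate 3, or with adjustment for transcript length, 2 genes of the list were lower. NPR1 averaged 404 ± 55.4 in eds16 and 464 ± 60.05 in Col-0 (SD, n = 3 each, adjusted p = 0.445), and NPR4 295 ± 21.0 in eds16 and 349 ± 17.58 in Col-0 (adjusted p = 0.332). FMO1, which makes N-hydroxypipecolic acid, the signal of systemic resistance, read 5.76, 2.66 and 8.29 in eds16 libraries, against 7.13, 14.3 and 6.44 in Col-0 libraries and was not called (adjusted p = 0.25). The list of that pathway and of systemic resistance more widely had 4 tested genes (ALD1, FMO1, AZI1 and DIR1). None of the 4 was called by limma on the 12 libraries or by edgeR, and 2 had an unadjusted p under 0.05. DESeq2 called 1 of them, DIR1, higher, as did limma with only the 6 libraries of eds16 and Col-0 or without ceh1/eds16 replicate 3.

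The letters TTGACT, a form of the W-box that WRKY factors bind, were counted on both strands in the 250 bases before the annotated start of each gene. They were found in 42.9% of the 163 genes lower by at least 2-fold, in 32.8% of all 542 lower genes, in 21.1% of the 299 higher genes and in 18.7% of the 18270 tested genes with a promoter sequence. The shorter core TTGAC, which is part of TTGACT, was in 68.1%, 57.9%, 44.8% and 44.7% of the same sets. TGACG, the core bound by TGA factors, was in 31.3%, 24.2%, 24.4% and 19.4%. CACGTG, the G-box, was in 3.68%, 4.80%, 12.04% and 7.37%, and GCCGCC, the GCC-box of ethylene response factors, in 1.23%, 1.48%, 1.67% and 1.98%. A match is a description of the letters and not a binding site.

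The promoters of PR5, CHI, RLP23 and CRK6, all lower in eds16, are printed to show where these letters lie, and that of DFR, higher in eds16, to show a G-box beside them. Each runs 5′ to 3′ along the gene over the 250 bases before its start, read from the RefSeq TAIR10.1 genome, and capitals mark the G-box letters CACGTG and the W-box letters TTGACT, which read AGTCAA where they lie on the other strand.
PR5 (chr1:28177420-28177669, + strand): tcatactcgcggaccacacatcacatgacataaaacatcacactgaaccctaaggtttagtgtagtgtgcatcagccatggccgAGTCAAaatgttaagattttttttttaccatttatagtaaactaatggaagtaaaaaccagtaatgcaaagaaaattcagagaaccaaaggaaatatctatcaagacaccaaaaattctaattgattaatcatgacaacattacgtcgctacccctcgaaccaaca
CHI (chr2:18077518-18077767, - strand): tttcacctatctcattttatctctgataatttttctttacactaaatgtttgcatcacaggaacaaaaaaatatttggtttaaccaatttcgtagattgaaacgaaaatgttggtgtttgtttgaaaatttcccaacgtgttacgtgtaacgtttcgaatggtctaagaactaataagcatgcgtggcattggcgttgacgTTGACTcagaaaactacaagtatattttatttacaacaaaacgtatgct
RLP23 (chr2:13862615-13862864, - strand): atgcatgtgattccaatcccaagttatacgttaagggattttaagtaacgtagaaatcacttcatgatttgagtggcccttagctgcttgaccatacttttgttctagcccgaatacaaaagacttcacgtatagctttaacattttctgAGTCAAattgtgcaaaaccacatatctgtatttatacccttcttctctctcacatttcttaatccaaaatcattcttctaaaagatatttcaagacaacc
CRK6 (chr4:12121119-12121368, + strand): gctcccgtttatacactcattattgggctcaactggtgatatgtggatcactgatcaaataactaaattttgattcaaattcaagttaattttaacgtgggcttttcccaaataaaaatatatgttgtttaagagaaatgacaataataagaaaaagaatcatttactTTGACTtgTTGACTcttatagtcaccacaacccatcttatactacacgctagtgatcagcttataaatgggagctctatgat
DFR (chr5:17166033-17166282, - strand): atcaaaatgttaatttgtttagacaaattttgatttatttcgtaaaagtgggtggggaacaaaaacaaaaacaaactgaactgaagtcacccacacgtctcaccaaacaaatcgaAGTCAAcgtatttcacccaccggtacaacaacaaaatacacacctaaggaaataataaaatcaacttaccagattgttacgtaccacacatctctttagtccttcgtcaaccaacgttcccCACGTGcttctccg
The marked letters begin 166 bases before the start in PR5, 49 in CHI, 100 in RLP23, 82 and 74 in CRK6 and 135 and 14 in DFR, whose first match is the W-box form and the other the G-box.

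Receptor kinases of the cell surface gave the list with the most lower members. Of 20 tested cysteine-rich receptor kinases (CRK), a family with many members induced by salicylic acid, 13 fell and none rose, with a median log2 fold change of -0.82. The count was 8 without Col-0 replicate 2. CRK6 read 55.7, 54.5 and 49.7 in eds16 libraries, against 122, 243 and 167 in Col-0 libraries. CRK7 read 14.4, 13.3 and 20.7 in eds16 libraries, against 53.5, 58.9 and 38.6 in Col-0 libraries. CRK4 read 202, 255 and 265 in eds16 libraries, against 566, 808 and 589.7 in Col-0 libraries. In all 3 genes the eds16 values lay below the Col-0 values, with falls of 1.66 ± 0.19, 1.59 ± 0.20 and 1.43 ± 0.15 (SE, adjusted p = 6.74e-05, 0.000197 and 2.71e-05, limma). CRK37 averaged 14.7 ± 1.24 in eds16 and 50.6 ± 18.0 in Col-0, a fall of 1.66 ± 0.19. CRK6, CRK7 and others of the family lie side by side and have similar sequences, so reads may be split between them. CRK23 averaged 7.93 ± 1.69 in eds16 and 27.4 ± 16.5 in Col-0 (adjusted p = 0.0161), and its call was lost without Col-0 replicate 2 (0.0851), eds16 replicate 2 (0.0605) or eds16 replicate 3 (0.0507) and by edgeR (0.0718).

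Wall-associated kinases (WAK), which bind pectin of the cell wall, fell in 4 of 6 tested members and rose in none, with a median of -0.70. WAK1 read 799, 873 and 850.5 in eds16 libraries, against 1459, 1501 and 1311 in Col-0 libraries. WAK2 read 628, 616 and 777 in eds16 libraries, against 1148, 1309.6 and 1176 in Col-0 libraries. WAK3 read 39.3, 46.6 and 43.5 in eds16 libraries, against 98.7, 109 and 83.7 in Col-0 libraries. None of the 3 overlapped between the groups, and they fell by 0.76 ± 0.11, 0.85 ± 0.13 and 1.15 ± 0.14 (SE, adjusted p = 0.001, 0.00175 and 0.000107, limma). WAKL6 averaged 99.8 ± 19.6 in eds16 and 155 ± 17.9 in Col-0 (adjusted p = 0.0328), and its call was lost without any of the Col-0 replicates 1 (0.0574), 2 (0.151) and 3 (0.0655), ceh1 replicate 1 (0.0546), eds16 replicate 1 (0.0607) and eds16 replicate 2 (0.167). It was also lost without limma's trend (0.0609), by edgeR (0.0593) and with a block for replicate number (0.0612).

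Among 20 tested genes of pattern recognition and its signalling 7 fell and none rose (3 without Col-0 replicate 2 or eds16 replicate 2, 4 without eds16 replicate 1). FLS2, the flagellin receptor gene, read 258, 249 and 307 in eds16 libraries, against 487, 428 and 406 in Col-0 libraries, a fall of 0.70 ± 0.12 (SE, adjusted p = 0.00448, limma) that held under each alternative. MPK11, a mitogen-activated protein kinase gene, read 14.4, 22.6 and 20.7 in eds16 libraries, against 46.4, 49.96 and 34.8 in Col-0 libraries and fell by 1.15 ± 0.20 (adjusted p = 0.00448). Groups did not overlap in either gene. SOBIR1, the partner kinase of receptor-like proteins, averaged 459 ± 20.1 in eds16 and 895 ± 163 in Col-0 (adjusted p = 0.0105, and 0.0766 without Col-0 replicate 2 and 0.0559 without eds16 replicate 2). LYK5, a chitin receptor gene, averaged 33.7 ± 7.29 in eds16 and 74.9 ± 25.9 in Col-0 (adjusted p = 0.00797, and 0.0513 without eds16 replicate 2). FRK1, a kinase gene induced by flagellin, averaged 7.09 ± 1.93 in eds16 and 18.4 ± 7.39 in Col-0 (adjusted p = 0.0214, and 0.113, 0.0947 and 0.0532 without Col-0 replicate 2, eds16 replicate 1 and eds16 replicate 3). Its call was also lost by edgeR (0.0913), by DESeq2 (0.0527) and with only the 6 libraries of eds16 and Col-0 (0.0596). The others called were BKK1 and MPK3.

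The receptor-like protein genes RLP23, RLP41 and RLP38 stood among the 15 largest falls of well-expressed genes. RLP23, the receptor of a peptide that many microbes share, read 32.6, 39.9 and 61.1 in eds16 libraries, against 282, 246 and 171 in Col-0 libraries, a fall of 2.38 ± 0.20 (SE, adjusted p = 3.48e-06, limma). RLP41 averaged 42.0 ± 12.6 in eds16 and 157 ± 49.0 in Col-0 and RLP38 33.3 ± 5.84 in eds16 and 117 ± 15.1 in Col-0, and the groups did not overlap (adjusted p = 0.000398 and 2.57e-05). Outside the immune genes, PCR1, a small membrane protein gene of cadmium resistance, read 65.2, 54.5 and 92.2 in eds16 libraries, against 258, 457 and 343 in Col-0 libraries. DUR3, the urea transporter gene, read 56.6, 46.6 and 81.8 in eds16 libraries, against 188, 212 and 155 in Col-0 libraries. Both fell with no overlap, by 2.297 ± 0.22 and 1.60 ± 0.18 (adjusted p = 1.52e-05 and 7.31e-05).

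Inside the cell, the lipase-like regulators and helper receptors of resistance were lower by smaller amounts. Of 7 tested genes of the EDS1 family and the helper receptors 4 were called lower (EDS1, PAD4, ADR1 and ADR1-L1), and all 7 had negative log2 fold changes, with a median of -0.50. EDS1 read 286, 265 and 277 in eds16 libraries, against 378, 428 and 369.6 in Col-0 libraries (log2 fold change -0.50 ± 0.11 (SE), adjusted p = 0.0151, limma), and PAD4 averaged 264 ± 38.1 in eds16 and 369.6 ± 41.6 in Col-0 (adjusted p = 0.0369). The count of 4 was 0 without Col-0 replicate 2, 1 without eds16 replicate 1 or 2 and 2 without Col-0 replicate 1, with quantile normalization or without limma's trend. The adjusted p of EDS1 was 0.0887 without Col-0 replicate 2, and 0.0522 and 0.0696 without eds16 replicates 1 and 2. In PAD4 it reached 0.175 without Col-0 replicate 2, 0.18 without eds16 replicate 1, 0.0703 without eds16 replicate 2, 0.0612 and 0.06 without Col-0 replicates 1 and 3, and 0.0614 and 0.0544 without ceh1 replicates 1 and 2. PAD4 was also lost by edgeR (0.0587), without the trend (0.078), at an equal upper quartile (0.0583), with quantile normalization (0.0601) and with adjustment for transcript length (0.0504). ADR1 was lost without Col-0 replicate 2 (0.0844). ADR1-L1 was lost without Col-0 replicates 1 (0.124) or 2 (0.134) or eds16 replicates 1 (0.114) or 2 (0.122). It was also lost at an equal library total (0.0622), with quantile normalization (0.081), without the trend (0.0745) and with a block for replicate number (0.0628).

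Among sensor receptors of the cell interior, ZAR1, whose product forms the resistosome, read 956, 995 and 928 in eds16 libraries, against 1521, 1670.0 and 1451 in Col-0 libraries. The groups did not overlap, and ZAR1 fell by 0.69 ± 0.12 (SE, adjusted p = 0.00274, limma) and was called under each alternative.

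Of 28 tested WRKY factors 5 fell and none rose, with a median log2 fold change of -0.39 (3 fell without Col-0 replicate 2 and 2 without eds16 replicate 1). WRKY70, a regulator downstream of NPR1, read 432, 444 and 501 in eds16 libraries, against 699, 831 and 764 in Col-0 libraries. Its partner WRKY54 read 65.2, 70.5 and 96.3 in eds16 libraries, against 147, 193 and 198 in Col-0 libraries. Neither overlapped, and they fell by 0.73 ± 0.11 and 1.21 ± 0.16 (SE, adjusted p = 0.000789 and 0.000336, limma), under each alternative. WRKY38, WRKY25 and WRKY15 were also called, each with calls lost without eds16 replicate 1 (adjusted p = 0.0534, 0.0793 and 0.0564). Without Col-0 replicate 2 WRKY25 and WRKY15 were lost (0.101 and 0.0779), without Col-0 replicate 1 WRKY38 (0.0538, and 0.0724 with only the 6 libraries of eds16 and Col-0), and without eds16 replicate 2 WRKY15 (0.0711).

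**Figure D3:**
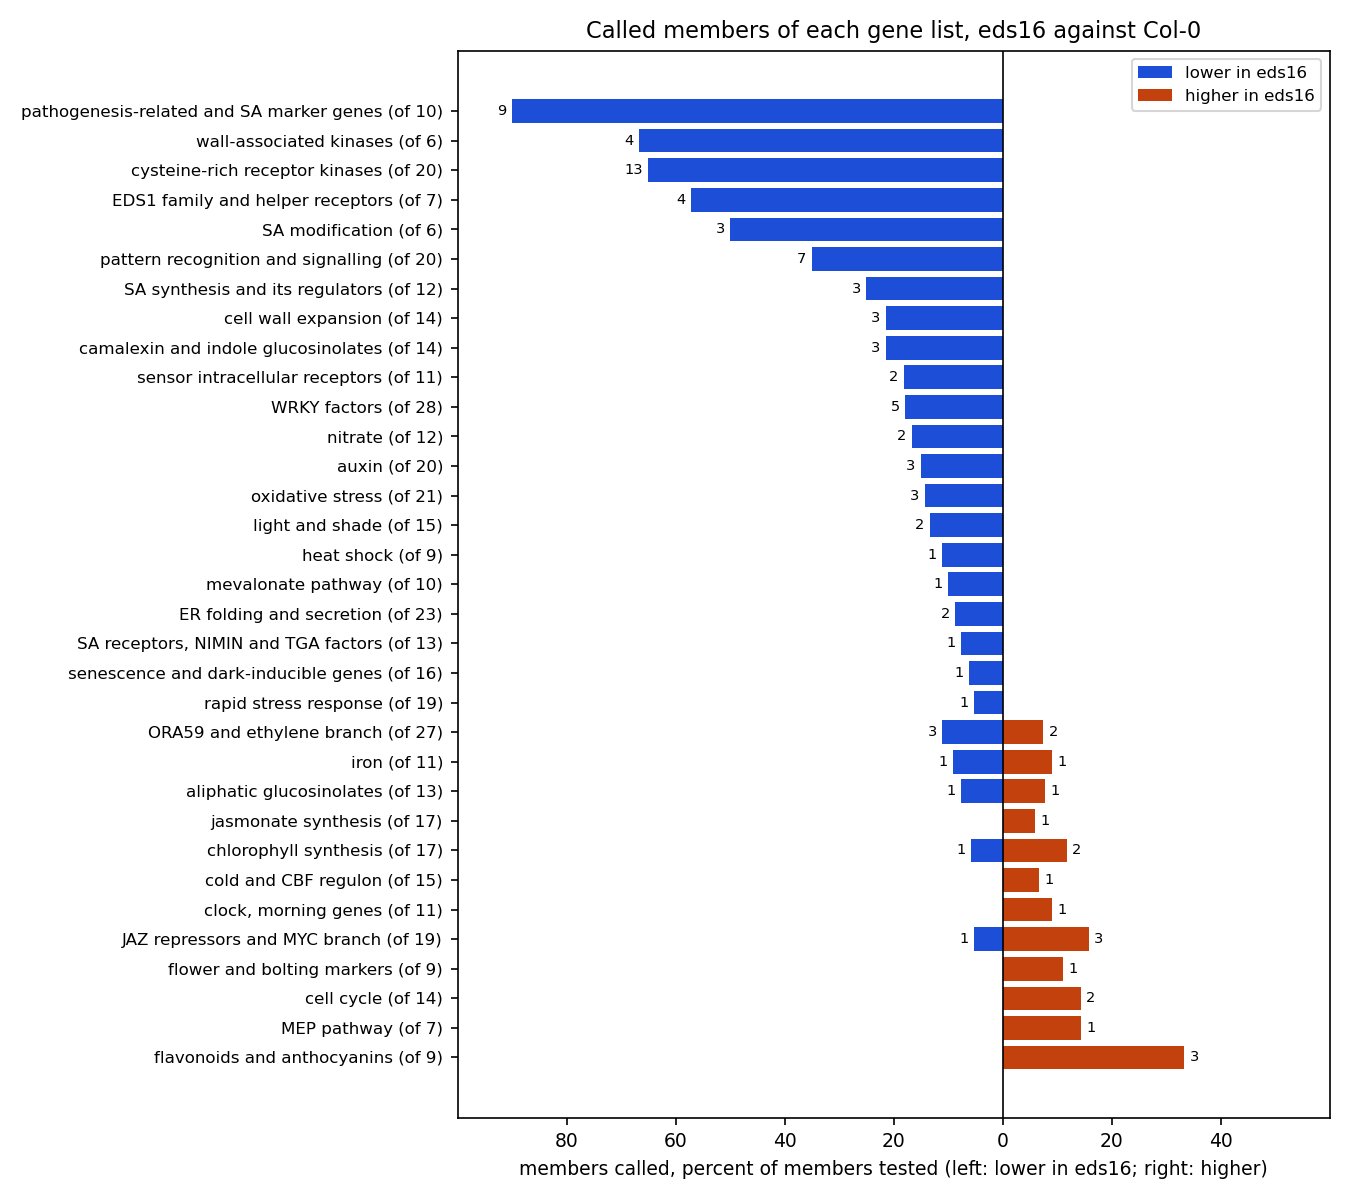
Share of the tested members of 33 gene lists called lower (left, percent) and higher (right, percent) in eds16 against Col-0, with the number of called genes at the end of each bar and the number tested in brackets. The longest bar is that of pathogenesis-related and salicylic acid marker genes, with 9 of 10 lower, and the longest bar on the higher side is that of flavonoids and anthocyanins, with 3 of 9.

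Folding genes of the endoplasmic reticulum were mostly not called. Of 23 tested genes 2 fell, BIP3 and CRT3, and none rose, and none of 8 tested regulators of the unfolded protein response was called by limma, edgeR or DESeq2 (1 had an unadjusted p under 0.05, 2 were lower without ceh1/eds16 replicate 3, and 1 with only the 6 libraries of eds16 and Col-0). BIP3, the inducible chaperone of that compartment, read 23.0, 14.6 and 19.7 in eds16 libraries, against 53.5, 66.0 and 48.9 in Col-0 libraries, a fall of 1.52 ± 0.16 (SE, adjusted p = 2.57e-05, limma) with no overlap. CRT3, a calreticulin gene needed for pattern receptors, averaged 1037 ± 78.1 in eds16 and 1547 ± 201 in Col-0 (adjusted p = 0.00876, and 0.0661 without Col-0 replicate 2). The folding list held 1 lower gene without Col-0 replicate 2, 5 without ceh1/eds16 replicate 3 and 4 with only the 6 libraries of eds16 and Col-0.

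Phi-class glutathione transferases, which salicylic acid and other stresses induce, were the called members of the oxidative stress list, 3 of 21 tested. GSTF2 read 752, 1055 and 954 in eds16 libraries, against 1750.1, 1925 and 1843 in Col-0 libraries. GSTF7 read 85.4, 104 and 106 in eds16 libraries, against 153, 212 and 194 in Col-0 libraries. Both were lower without overlap, by 1.01 ± 0.13 and 0.91 ± 0.15 (SE, adjusted p = 0.000317 and 0.00221, limma). GSTF6 had an adjusted p of 0.0432, which 8 of the 12 leave-outs raised above 0.05 (to 0.207 without Col-0 replicate 2 and 0.0507 to 0.206 without Col-0 replicate 3, any ceh1 replicate, eds16 replicates 1 and 2 or ceh1/eds16 replicate 1). It was also lost by edgeR (0.0848), with no filter on low values (0.0641), at an equal upper quartile (0.072), without limma's trend (0.0981) and with a block for replicate number (0.0696). GSTF6 and GSTF7 are similar neighbours, so reads may be split between them. Of 14 tested camalexin and indole glucosinolate genes 3 fell (IGMT2, MYB51 and GSTF6) and none rose. The count was 1 without Col-0 replicate 2 or 3, ceh1 replicate 2 or eds16 replicate 1 or 2, and 5 without eds16 replicate 3. It was also 1 at an equal upper quartile, without limma's trend and by edgeR. MYB51 (adjusted p = 0.0369, limma) lost its call under 12 of the 26 alternatives. IGMT2, an indole glucosinolate methyltransferase gene, was lower and averaged 16.1 ± 4.51 in eds16 and 36.7 ± 2.86 in Col-0 (adjusted p = 0.00703). MAM3, an enzyme gene of long-chain aliphatic glucosinolates, was lower too and averaged 43.2 ± 11.7 in eds16 and 99.3 ± 8.79 in Col-0 (adjusted p = 0.00115). It was the only lower gene called among 13 tested aliphatic glucosinolate genes, of which 11 had a positive log2 fold change (median 0.21). GSTF11 of that list was called higher (log2 fold change 0.80, adjusted p = 0.0254, limma). Its call was lost without Col-0 replicate 2 (0.132) or 3 (0.0523), eds16 replicate 1 (0.121) or 2 (0.133), and with adjustment for transcript length (0.0672).

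The higher side began with jasmonate storage proteins. VSP2 (AT5G24770), an acid phosphatase-like storage protein gene induced through MYC2, read 2062, 3422 and 859.8 in eds16 libraries, against 611, 349.7 and 462 in Col-0 libraries. VSP1, its close homologue nearby, read 1153, 1683 and 613 in eds16 libraries, against 510.0, 344 and 355 in Col-0 libraries. Every eds16 value lay above every Col-0 value in both genes, although the eds16 libraries differed among themselves, with replicate 2 the highest and replicate 3 the lowest. VSP2 rose by 1.98 ± 0.33 and VSP1 by 1.42 ± 0.26 (SE, adjusted p = 0.00254 and 0.00543, limma), and both calls held under each alternative. The sequences are alike, so reads may be split between the pair.

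Of 19 tested JAZ repressors and genes of the MYC branch 3 rose (VSP2, VSP1 and JAZ9) and TAT3 fell. TAT3, a tyrosine aminotransferase gene that jasmonate also induces, read 42.2, 43.9 and 45.6 in eds16 libraries, against 82.0, 103 and 63.1 in Col-0 libraries, a fall of 0.87 ± 0.16 (SE, adjusted p = 0.00493, limma). JAZ9 averaged 805 ± 159 in eds16 and 543 ± 29.1 in Col-0 (adjusted p = 0.026), with calls lost without Col-0 replicates 1 to 3 (0.0519, 0.109 and 0.0722) and eds16 replicates 1 and 2 (0.0632 and 0.137). The call of JAZ9 was also lost without limma's trend (0.0663) and with a block for replicate number (0.0545). JAZ1, an early repressor gene, stood at 272 ± 97.2 in eds16 and 160 ± 34.2 in Col-0 and was not called (adjusted p = 0.0682). Of 17 tested genes of jasmonate synthesis 1 rose (2 without eds16 replicate 3), the allene oxide cyclase gene AOC2, which read 1650.4, 2154 and 1206 in eds16 libraries, against 867, 897 and 926 in Col-0 libraries (log2 fold change 0.86 ± 0.16, adjusted p = 0.00543).

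Defensin genes of the joint jasmonate and ethylene branch were low in both genotypes. PDF1.2A read 48.0, 57.2 and 33.1 in eds16 libraries, against 20.2, 17.8 and 15.5 in Col-0 libraries. PDF1.2C read 21.1, 14.6 and 24.9 in eds16 libraries, against 5.94, 3.57 and 3.86 in Col-0 libraries. No eds16 value overlapped a Col-0 value, and the log2 fold changes were 1.296 ± 0.32 and 1.95 ± 0.41 (SE, adjusted p = 0.0289 and 0.0121, limma). The calls rested on single libraries, with an adjusted p for PDF1.2A of 0.0663, 0.1 and 0.0842 without Col-0 replicates 1 to 3 and 0.107 and 0.15 without eds16 replicates 1 and 2, and for PDF1.2C of 0.0661 without Col-0 replicate 2 and 0.0589 without eds16 replicate 1. By edgeR neither was called (0.144 and 0.174), nor by DESeq2 (0.078 and 0.0502). PDF1.2A was lost without limma's trend (0.0679) and with a block for replicate number (0.0525), and the sequences of these genes are nearly the same. In the same list of 27 tested genes EIN3, EBF1 and EBF2 of ethylene signalling were lower (5 lower in the list without ceh1/eds16 replicate 3, with only the 6 libraries of eds16 and Col-0 or with adjustment for transcript length). EBF1 averaged 348 ± 46.6 in eds16 and 703 ± 269 in Col-0 (adjusted p = 0.00805, and 0.0561 without eds16 replicate 1). EIN3 and EBF2 (adjusted p = 0.0147 and 0.0178) were also lost without Col-0 replicates 1 and 2 (EIN3 0.0604 and 0.0859, EBF2 0.0885 and 0.0704) and eds16 replicates 1 and 2 (EIN3 0.0674 and 0.0605, EBF2 0.0589 and 0.071), and EBF2 without eds16 replicate 3 (0.0521) or limma's trend (0.0571).

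DFR and LDOX of late anthocyanin synthesis and the regulator gene PAP1 rose. Of 15 flavonoid and anthocyanin genes in the list only 9 passed the filter on the mean, and of these 3 rose and none fell. Log2 fold changes were positive in 6 of the 9 and negative in 3. DFR, the dihydroflavonol reductase gene, read 107, 95.8 and 64.2 in eds16 libraries, against 41.6, 16.1 and 25.8 in Col-0 libraries. LDOX, the anthocyanidin synthase gene, read 108, 104 and 70.4 in eds16 libraries, against 46.4, 30.3 and 32.2 in Col-0 libraries. PAP1, the MYB factor gene that switches the pathway on, read 59.5, 62.5 and 51.8 in eds16 libraries, against 23.8, 17.8 and 20.6 in Col-0 libraries. In all 3 genes the groups were apart, with rises of 1.71 ± 0.29, 1.35 ± 0.22 and 1.44 ± 0.24 (SE, adjusted p = 0.00269, 0.00258 and 0.00264, limma), held in each leave-out. The first committed genes of the pathway, TT4 and TT5, had log2 fold changes of -0.06 and 0.25 and were not called (adjusted p = 0.878 and 0.52). With a minimum mean of 50 over the 12 libraries, DFR, LDOX and PAP1 were not tested.

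**Figure D4:**
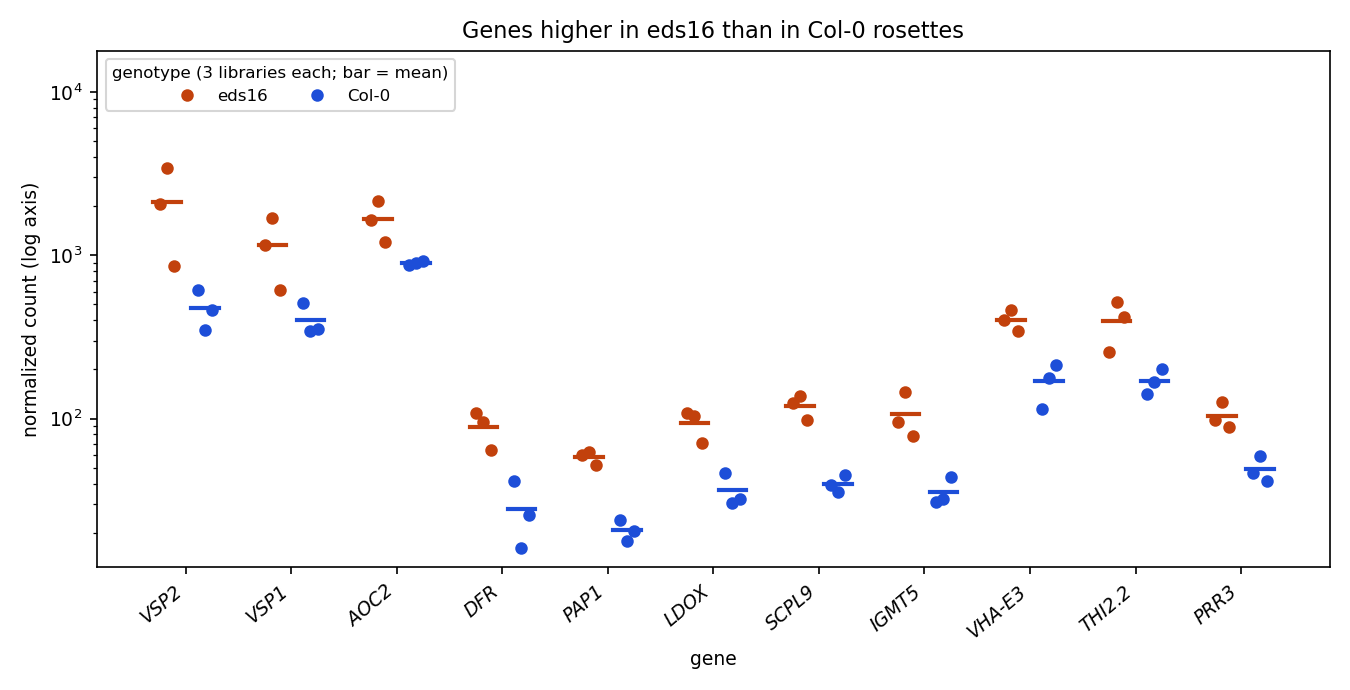
Normalized counts on a log axis for 11 genes higher in eds16, with eds16 libraries left of Col-0 libraries, points for the 3 libraries and bars for their mean. All eds16 points lie above all Col-0 points in each gene, as in VSP2 with 860 to 3422 in eds16 and 350 to 611 in Col-0.

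Other well-expressed genes among the largest rises had varied functions. SCPL9, a serine carboxypeptidase-like gene, read 124, 138 and 97.4 in eds16 libraries, against 39.2, 35.7 and 45.1 in Col-0 libraries, a rise of 1.55 ± 0.17 (SE, adjusted p = 6.18e-05, limma). IGMT5, which methylates indole glucosinolates at another position than IGMT2, read 95.0, 146 and 78.7 in eds16 libraries, against 30.9, 32.1 and 43.8 in Col-0 libraries, a rise of 1.52 ± 0.20 (adjusted p = 0.000258). Groups were apart in both, and IGMT5 rose where IGMT2 fell. VHA-E3, a subunit gene of the vacuolar proton pump, averaged 402 ± 60.8 in eds16 and 169 ± 50.5 in Col-0 (adjusted p = 0.00115), THI2.2, a thionin gene, 397 ± 133 in eds16 and 170.0 ± 29.8 in Col-0 (adjusted p = 0.0067), and PRR3, a clock-related regulator gene, 104 ± 19.5 in eds16 and 48.8 ± 9.09 in Col-0 (adjusted p = 0.00205). These 5 calls held under each alternative.

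The remaining 8 of the 15 largest rises depended on single libraries. CSLA01, a glucomannan synthase gene, averaged 149 ± 66.1 in eds16 and 38.4 ± 9.64 in Col-0 (log2 fold change 1.85 ± 0.43 (SE), adjusted p = 0.0234, limma), and was lost without Col-0 replicate 2 (0.0809) or 3 (0.0792) or eds16 replicate 1 (0.102) or 2 (0.144), or with 0.5 added before the log (0.0528). RCI2A, a cold-induced membrane protein gene, averaged 394 ± 50.4 in eds16 and 175 ± 39.2 in Col-0 (adjusted p = 0.0281), and was lost without Col-0 replicate 2 (0.143) or 3 (0.0631) or any eds16 replicate (0.0664, 0.13 and 0.067), without limma's trend (0.0804), by edgeR (0.052) and by DESeq2 (0.0547). JAL23, a lectin gene, averaged 315 ± 41.1 in eds16 and 156 ± 30.1 in Col-0 and was lost without Col-0 replicate 2 (0.0626). The early nodulin-like gene ENODL13 averaged 105 ± 18.7 in eds16 and 49.2 ± 17.2 in Col-0, and was lost without Col-0 replicate 2 (0.0704) or eds16 replicate 2 (0.0696). PQL3, BGLU47, XTH31 and SEP1 were each lost without Col-0 replicate 2 (0.0833, 0.126, 0.151 and 0.183) and in 2 to 7 other leave-outs. With no filter on low values BGLU47, XTH31 and SEP1 were lost (0.0568, 0.0661 and 0.0765), and without limma's trend XTH31 and SEP1 (0.0516 and 0.0752).

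Markers of other organs and cell types were read beside these results. All 9 tested markers of flowers and bolting had a positive log2 fold change, with a median of 0.75, and 1, the floral organ gene SEP1, was called (adjusted p = 0.0434). That call was lost without Col-0 replicate 2 or 3, ceh1 replicate 1 or 2, any eds16 replicate or ceh1/eds16 replicate 1 (0.0505 to 0.183). Of the list 2 were called higher by DESeq2, with only the 6 libraries of eds16 and Col-0 and without ceh1 replicate 3, and none with no filter on low values or without limma's trend. Their summed level over 11 members was 2315 to 3038 in eds16 libraries and 1932 to 2198 in Col-0 libraries, most of it from the flowering regulator SOC1, and none was at 0 in all 6 libraries. AP3 and PI, which define petals and stamens, read 22.6 to 45.1 and 49.2 to 70.05 in eds16, and 14.3 to 21.4 and 29.7 to 44.6 in Col-0. The part of floral tissue in the rises described above was not tested. Trichome markers summed to 206 to 241 in eds16 and 125 to 180 in Col-0 over 6 members, with none of 3 tested called by limma or edgeR, 1 called higher by DESeq2 and without ceh1/eds16 replicate 3, and 1 at an unadjusted p under 0.05. The summed levels of guard cell, vascular and root markers overlapped between the groups, and none was called by limma, edgeR or DESeq2 in 9, 8 and 3 tested (1, 1 and 2 at an unadjusted p under 0.05). Without Col-0 replicate 3, 1 guard cell marker was called higher. Summed seed storage markers were at or under 1.29 in each library, with 6 of 8 at 0 in all 6.

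Photosynthesis was measured with 39 tested nuclear genes, and none was called by limma or edgeR and 1 by DESeq2, with 7 at an unadjusted p under 0.05. Under all alternatives 0 to 3 were higher and 0 to 4 lower. RBCS1A, a Rubisco small subunit gene, averaged 92059 ± 3177 in eds16 and 86975 ± 3685 in Col-0 (adjusted p = 0.83), and the antenna gene LHCB1.3 76489.8 ± 1697 in eds16 and 103640.0 ± 11599 in Col-0 (adjusted p = 0.231). Chlorophyll synthesis (2 higher and 1 lower of 17 tested), light and shade (2 lower of 15), cell wall expansion (3 lower of 14) and the cell cycle (2 higher of 14) had no called member without eds16 replicate 1, and at most 1 each without Col-0 replicate 1 or 2 or eds16 replicate 2. Auxin genes had 3 lower of 20 (1 without Col-0 replicate 3, eds16 replicate 1 or eds16 replicate 2). Nitrate genes had 2 lower of 12 (1 without Col-0 replicate 1 or 2 or eds16 replicate 1 or 2, and 5 without ceh1/eds16 replicate 3, with only the 6 libraries of eds16 and Col-0 or by DESeq2). With only those 6 libraries light and shade had 4 lower genes and cell wall expansion 5. PORA, the dark-type protochlorophyllide reductase gene, averaged 365 ± 60.7 in eds16 and 669.7 ± 35.6 in Col-0 (adjusted p = 0.00762, and 0.0509 without eds16 replicate 1). PIN3, an auxin exporter gene, read 400.1, 403 and 496 in eds16 libraries, against 832, 679.8 and 679.9 in Col-0 libraries. GLN1;1, a cytosolic glutamine synthetase gene, read 555, 580.0 and 614 in eds16 libraries, against 846, 1181 and 882 in Col-0 libraries. Both fell with no overlap, by 0.75 ± 0.12 and 0.72 ± 0.13 (SE, adjusted p = 0.00209 and 0.00604, limma), under each alternative.

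The fold changes of eds16 over Col-0 also varied with transcript length. The median transcript was 2105 bases for lower genes, 1279 bases for higher genes and 1773 bases for all genes tested. In 5 equal classes of genes, shortest to longest, the median log2 fold change was 0.19, 0.04, -0.03, -0.09 and -0.16. For ceh1/eds16 over ceh1 it ran the other way, from -0.12 in the shortest class to 0.096 in the longest. The median deviations of eds16 replicates 1 to 3 were 0.07, 0.13 and 0.09 in the shortest class and -0.08, -0.08 and -0.07 in the longest. Those of Col-0 replicates 1 to 3 were -0.16, -0.09 and -0.01 in the shortest class and 0.20, 0.07 and -0.02 in the longest. Among the 6 libraries Col-0 replicate 1 had the widest range along this axis. After removal of this trend from each library 746 genes were lower and 404 higher, with 748 of the 841 calls kept. PR1, PR2, PR5, LURP1, AED1 and ICS1 then stood at -2.96, -2.06, -2.11, -2.16, -1.81 and -3.90, and VSP2, DFR, LDOX and PAP1 at 1.94, 1.68, 1.29 and 1.305 (log2), and all 10 remained called. Among smaller changes, FLS2 went from -0.70 to -0.52, ADR1-L1 from -0.50 to -0.35 and PDF1.2A from 1.296 to 0.997. GSTF6 moved away from 0, from -0.55 to -0.67. PAD4, GSTF11, the cold gene LTI30 and the clock gene RVE2 lost their calls (adjusted p = 0.0504, 0.0672, 0.0642 and 0.0502, limma).

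The same mutation was also measured in the ceh1 background, where ceh1/eds16 and ceh1 share no library with the comparison above. Both comparisons come from the same fit over 12 libraries and share its estimate of the spread of each gene. Their calls are therefore not independent. There 776 genes were lower and 1084 higher (4.24% and 5.93% of those tested). Of the 542 genes lower in eds16 against Col-0, 155 were also lower in ceh1/eds16 against ceh1, which is 28.6% of the first list and 19.97% of the second, 28 were higher and 359 were not called. Of the 299 higher genes 95 were also higher (31.8% and 8.76%), 10 were lower and 194 were not called. The 250 genes called the same way were 112 to 382 when each library was left out, with 161 and 112 without Col-0 replicates 1 and 2, 117 and 139 without eds16 replicates 1 and 2, 151 without ceh1 replicate 1 and 382 without ceh1/eds16 replicate 3.

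The effect of eds16 differed between the backgrounds for 891 genes (4.87% of those tested), of which 144 were among the lower and 71 among the higher genes. The total was 3013 without ceh1/eds16 replicate 3, 432 without Col-0 replicate 2, 348 and 355 without ceh1 replicates 1 and 2, 411 and 469 without eds16 replicates 1 and 2 and 498 without ceh1/eds16 replicate 2. PR1 averaged 85.7 ± 23.61 in ceh1/eds16 and 7388 ± 1949 in ceh1 (SD, n = 3 each), a fall of 6.42 that was larger than in the Col-0 background by 3.66 ± 0.39 (SE, log2, adjusted p = 6.2e-05, limma). PR2 averaged 5397 ± 539.7 in ceh1/eds16 and 6229 ± 899.8 in ceh1, and PR5 1021 ± 238 in ceh1/eds16 and 1072 ± 122 in ceh1. Neither was called there (log2 fold changes -0.20 and -0.09), and the differences between backgrounds were 1.82 ± 0.23 and 1.87 ± 0.27 (adjusted p = 0.00025 and 0.000785). AED1, CHI, RLP23, BIP3, CRK37 and GSTF2 likewise differed, each with the smaller effect in the ceh1 background, and PCR1 and WRKY38 with the larger. These 11 differences held under each of the 25 alternatives that give them.

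For other members no difference between backgrounds was called. BG3 was lower by 3.61 in ceh1/eds16 than in ceh1, with a difference between backgrounds of 0.30 ± 0.53 (SE, log2, adjusted p = 0.779, limma). LURP1 and DMR6 were lower by 2.47 and 1.69 there, with differences of -0.28 ± 0.22 and 0.10 ± 0.20 (adjusted p = 0.497 and 0.815). VSP2 was not called in ceh1/eds16 against ceh1, with means of 733 ± 66.5 in ceh1/eds16 and 579 ± 74.7 in ceh1, and the difference of -1.63 ± 0.46 missed the threshold (adjusted p = 0.0525). AOC2, IGMT5, SCPL9 and PRR3 were higher there too, by 1.16, 1.26, 0.74 and 1.54 (adjusted p = 0.000125, 0.000418, 0.00944 and 2.07e-05).

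**Figure D5:**
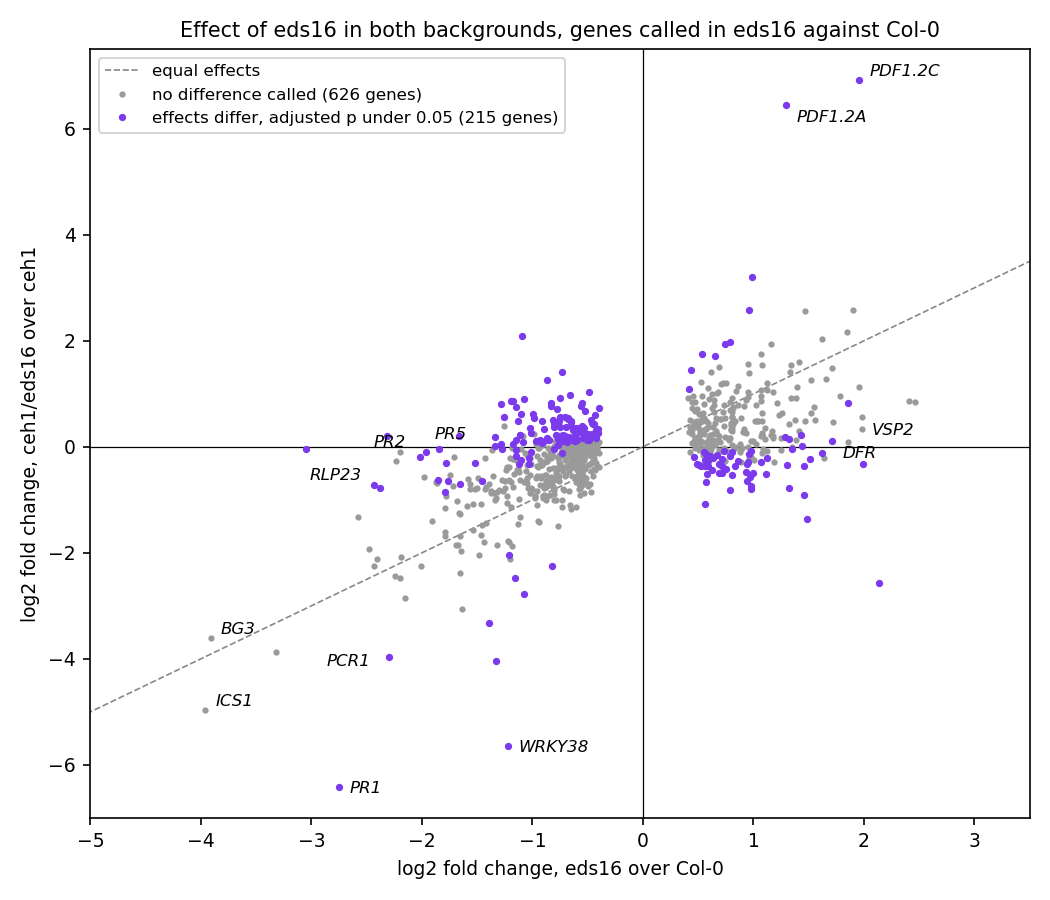
Log2 fold change of ceh1/eds16 over ceh1 (vertical axis) against that of eds16 over Col-0 (horizontal axis) for the 841 genes called in eds16 against Col-0, with the 215 genes whose effects differ by the test of the difference in purple and a dashed line of equal effects. PR1 and WRKY38 lie far below the line, PDF1.2A and PDF1.2C far above it, and PR2 and PR5 near 0 on the vertical axis.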

How the data were processed

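The authors deposited 1 table of normalized counts per gene for 12 libraries, 3 for each of 4 genotypes. Its values are a signal, not raw counts: the authors divided read counts by a size factor of each library. TopHat2, DESeq2 and the TAIR10 genome are named per the submitters' processing notes, with versions not given in the sources used here. Each value is a whole multiple, within 0.01 of a read, of what 1 read is worth in its library (100% of values), so read totals could be recovered. They ran between 4986863 and 18081979, and they limit genes with few reads.

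Genes averaging at least 10 were tested with limma 3.58.1 (R 4.3.3) with a mean-variance trend on log2(value + 1), as 4 group means over 12 libraries, and p-values were adjusted by Benjamini-Hochberg over 18289 genes at 0.05. The replicates are biological, by the design text of the series. Same-numbered libraries did not deviate together. Count tests on the recovered reads (edgeR 4.0.16, DESeq2 1.42.0) were alternatives, and edgeR called 213 higher and 369 lower genes. Named genes are, by rule, the 15 largest called changes in each direction with a mean of at least 100 in the higher group, no overlap and a gene symbol, the 5 most changed called members of each gene list (2 best expressed where none is called), called neighbours within 50000 bases of ICS1, and ICS1, ICS2, HDS, PR1, PR2, PR5 and BIP3. Other members, mainly ones not called, were named after their values were seen. The comparison, its members and the lists were chosen with earlier results of these data known. Of 729 list entries 18 matched no gene. Positions and promoters are from RefSeq TAIR10.1. Some results are not reported here.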

Additional observations from a re-analysis of the deposited data

Results flagged for a closer look

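The effect of the eds16 mutation differed between the ceh1 and Col-0 backgrounds, by limma's test of the difference, in 39 of the genes named by rule. Values are the log2 effect in the ceh1 background minus that in the Col-0 background. In 22 genes the difference passed the threshold under each of the 25 alternatives that give it. Among salicylic acid markers and receptors these were PR1 (-3.66), PR2 (1.82), PR5 (1.87), AED1 (1.22), CHI (1.80), RLP23 (1.59), CRK37 (1.87), WAK3 (0.98) and WRKY38 (-4.41). The others were PCR1 (-1.68), BIP3 (1.22), IGMT2 (2.04), MYB51 (1.32), GSTF2 (1.27), GSTF7 (1.41), FMO1 (3.64), HMG1 (0.87), APR2 (-0.75), RVE2 (2.22), ENODL13 (-1.62), PDF1.2A (5.15) and PDF1.2C (4.96).

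In 17 genes the difference was lost under at least 1 alternative. On the immune side these were RLP38 (0.94), NUDT6 (1.12), WRKY54 (-0.82), WRKY15 (0.81), MPK11 (1.09), CBP60G (1.18), ADR1 (0.73), EDS1 (0.63), GSTF6 (0.94) and TCH3 (0.88). The rest were EBF1 (1.06), CYCA1;1 (-0.96), CYCB1;2 (-0.81), VHA-E3 (-1.11) and the anthocyanin genes LDOX (-1.39), PAP1 (-1.44) and DFR (-1.61). Each of the 17 was lost without ceh1 replicate 1.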

How the results depend on the processing

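None of the 104 called genes that the naming rule takes changed direction under any of 26 alternatives. Of their 2697 values under an alternative 2352 kept their call and 345 lost it. The 28 genes of the rule that were not called gained a call in 7 of 727 values. The 299 higher genes became 161 without limma's trend, 683 with only the 6 libraries of eds16 and Col-0 and 67 to 752 with a library left out. The 542 lower genes became 351, 830 and 170 to 1029. The 250 genes called the same way in both backgrounds became 384 with adjustment for transcript length, chosen after seeing the data, and 112 to 382 with a library left out. The 891 genes whose effect differs between backgrounds became 593 with no filter on low values, 554 without the trend, 1375 with the length adjustment and 348 to 3013 with a library left out. The cause was not tested. Fits on only 6 libraries give no value for the ceh1 background.

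The same-numbered libraries share only a number (correlations of their deviations -0.0261 to 0.013), and with a replicate block 168 genes were higher, 370 lower, and 566 differed between backgrounds. Counts of the gene lists kept within 1.5 times in 2192 of 2444 values. Depth limits genes such as DLO1, UGT76B1, BG3 and PDF1.2C, which had few reads in 1 genotype. Genes of similar sequence, such as the CRK, RLP, VSP and PDF1.2 families, may share reads.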

Other observations

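Families outside the gene lists were looked at after their values were seen, so they carry no test as families. Of 46 tested receptor-like proteins, surface receptors without a kinase domain, 11 were lower in eds16 and none higher, with a median log2 fold change of -0.55 against -0.02 for all genes. Over all genes tested 2.96% were lower. RLP11 and RLP21 averaged 0.443 and 0.789 in eds16, against 6.21 and 5.58 in Col-0. Both passed the filter through their levels in ceh1/eds16 (41.9 and 21.3) and ceh1 (36.0 and 41.1). The count of 11 was 7 without eds16 replicate 1 and 17 without ceh1/eds16 replicate 3. With a minimum mean of 50 over the 12 libraries 28 of the family were tested and 7 were lower. With adjustment for transcript length the median was -0.44, against -0.02 for all genes, and 14 were lower. These genes lie partly in clusters of similar sequence, so reads may be split between members. Of 17 tested NDH complex subunits, which the photosynthesis list does not hold, 6 were higher and none lower. Their log2 fold changes were 0.05 to 0.81, and 15 were higher in ceh1/eds16 than in ceh1. Over all genes tested 1.63% were higher in eds16 than in Col-0. With adjustment for transcript length the median of the subunits went from 0.34 to 0.25, and 5 were higher. By edgeR 3 were higher, and without limma's trend 2. No subunit was called in eds16 against Col-0 without Col-0 replicate 1 or eds16 replicate 2. The terpene synthase genes TPS03 and TPS04 were higher and the RPW8 homologues HR3 and HR4 lower, with calls lost in some leave-outs.

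Of 6 tested vacuolar sorting receptors, which carry cargo proteins to the vacuole, 3 were lower. VSR6 read 46.1, 42.6 and 55.9 in eds16 libraries, against 101, 127 and 115 in Col-0 libraries. VSR5 read 8.64, 13.3 and 13.5 in eds16 libraries, against 26.2, 30.3 and 28.3 in Col-0 libraries. VSR7 read 72.0, 81.2 and 50.8 in eds16 libraries, against 133, 175 and 134 in Col-0 libraries. The groups were apart in all 3 genes, with falls of 1.23, 1.22 and 1.12 on the log2 scale (adjusted p = 0.000352, 0.00805 and 0.00163, limma), and all 3 were also lower in ceh1/eds16 against ceh1. The 3 calls held under each alternative except a minimum mean of 50, where 1 of them was not tested.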
